A study of Homo sapiens with 6 samples.

Results

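Alternative splicing in a cell is set by a few families of RNA-binding proteins and by the kinases that act on them, and 54 of their genes were followed here in a knockdown of a core spliceosome subunit. The 54 genes are the rows of the deposited gene table whose symbol is one of a list of SR proteins with TRA2 (13 genes), CLK and SRPK kinases (6), hnRNPs (19) and other splicing regulators such as the PTBP and MBNL proteins (16). All 54 were found among the 39323 genes of the table, and all 54 passed the filter on low counts that left 16869 genes for testing. Polyadenylated RNA was sequenced from MDA-MB-231, a breast cancer cell line of human origin that lacks hormone receptors, in 3 libraries after transfection of an siRNA against SF3B6 (siSF3B6) and in 3 libraries after transfection of a non-targeting siRNA (siNC). SF3B6 encodes p14, which belongs to SF3b, a complex within the U2 snRNP, and touches the branch point adenosine of introns. Both groups received a duplex with the same lipid reagent, and the knockdown rests on 1 duplex in 1 cell line. No label says whether the replicates came from separate cultures, so the spread behind each p-value may be technical.

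The 2 duplexes are shown because the first bases of their guide strands can also pair with other messages, and that pairing is counted for the members further on. Capitals mark the bases of the sense strand that lie opposite bases 2 to 8 of the guide strand.
siSF3B6: ggaggaacaguUGAAGCUutt
siNC: uucuccgaacgUGUCACGutt

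SR proteins bind exonic sequences through RNA recognition motifs and help U1 and U2 snRNPs to find splice sites, with an arginine-serine domain that makes the contacts. SRPK kinases phosphorylate that domain in the cytoplasm, which lets the protein enter the nucleus, and CLK kinases phosphorylate it further in the nucleus, which frees it from speckles. hnRNPs coat nascent transcripts and often oppose SR proteins at exons, while PTBP, MBNL, CELF, ESRP, QKI and RBFOX proteins make splicing differ between tissues. Many of these genes keep their own level in check through poison exons or retained introns in their messages. The deposited tables hold 1 value per gene, so the isoforms of a gene could not be told apart.

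Library totals ran between 28504091 and 38546037 reads over genes. Mitochondrially encoded genes took 10.6% to 11.8% of reads in the siSF3B6 libraries, against 3.38%, 3.93% and 9.07% in siNC replicates 1, 2 and 3. Genes with 1 to 9 reads numbered 7877 to 8325 in siSF3B6, against 13952, 14956 and 7731 in siNC. On both measures siNC replicates 1 and 2 stood apart from the other 4 libraries, so counts of calls and the main genes are also given with only replicate 3 of siNC as the control (the lone control). This fit takes the spread of the siSF3B6 libraries for the single siNC library too, and it has fewer libraries than the full one. The targeted gene, SF3B6, had 22.5, 25.0 and 21.3 CPM (read counts scaled to library size with TMM factors) in siSF3B6 and 86.4, 80.5 and 102 CPM in siNC. It was thus at 25.6% of the siNC level, with no overlap of the groups (log2 fold change -1.96, SE 0.104; adjusted p = 1.43e-07 by edgeR with n = 3 libraries in each group). An exact two-sided permutation test of 3 libraries against 3 cannot go below p = 0.1, and SF3B6 reached that value. Markers of the mesenchymal state were high, with VIM at 2880 to 3320 CPM and AXL at 564 to 689 CPM, although SPARC had 0.449 to 3.82 CPM. Of the receptors low in the line, ESR1 had 0 to 0.133 CPM and PGR 0.0893 to 0.353 CPM, but ERBB2 had 49.3 to 65.0 CPM. Of the leukocyte, endothelial and liver markers, the T-cell gene CD3E, the endothelial CDH5 and the liver gene ALB were each under 0.2 CPM in every library. The leukocyte marker PTPRC had 0.481 to 1.47 CPM and the endothelial marker PECAM1 6.67 to 9.68 CPM. In bulk RNA, a change in the share of a kind of cell and a change of RNA per cell cannot be told apart.

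Of the 54 regulators, 21 were higher in siSF3B6, 5 were lower and 28 did not pass an adjusted p under 0.05 (edgeR quasi-likelihood test, Benjamini-Hochberg over all 16869 genes). Across all genes tested, 20.8% were called higher and 20.0% lower. By this test 38.9% of the regulators were higher and 9.26% lower, which is a description and not a test of the list. With GC content and transcript length offset, 27.8% of them were lower, and the share called lower was then above the 22.7% of all genes in place of below it. Their median log2 fold change was 0.14, against 0.00093 over all genes. The changes were small. HNRNPH3, PTBP2, RBM39 and HNRNPH2 changed at least 1.5-fold, which is 15.4% of the 26 called regulators, against 37.1% of all called genes, and none of the 54 changed 2-fold.

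The libraries of the 2 groups did not overlap for 30 regulators, of which siSF3B6 lay above siNC for 23 and below it for 7, and they overlapped for 24. Over all genes tested, the siSF3B6 libraries all lay above siNC for 26.3% and all below it for 25.9%. The siNC library nearest to siSF3B6 was replicate 3 for 20 of the 21 regulators called higher and for 1 of the 5 called lower. The highest siSF3B6 library was replicate 3 for 17 of those 21 and for 40 of all 54 regulators. These counts were not made over all genes, so they cannot be read as particular to the regulators. With siNC replicate 3 as the lone control, 6 regulators were higher and 2 lower with a median of 0.042, where 6.6% and 7.24% of the 17851 genes tested were called higher and lower. HNRNPH3, HNRNPH2, HNRNPDL, PTBP2, RBM39 and CLK3 were the 6 and HNRNPA1 and HNRNPAB the 2. Whether the features that set siNC replicates 1 and 2 apart had a part in the other calls was not tested.

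**Figure D1:**
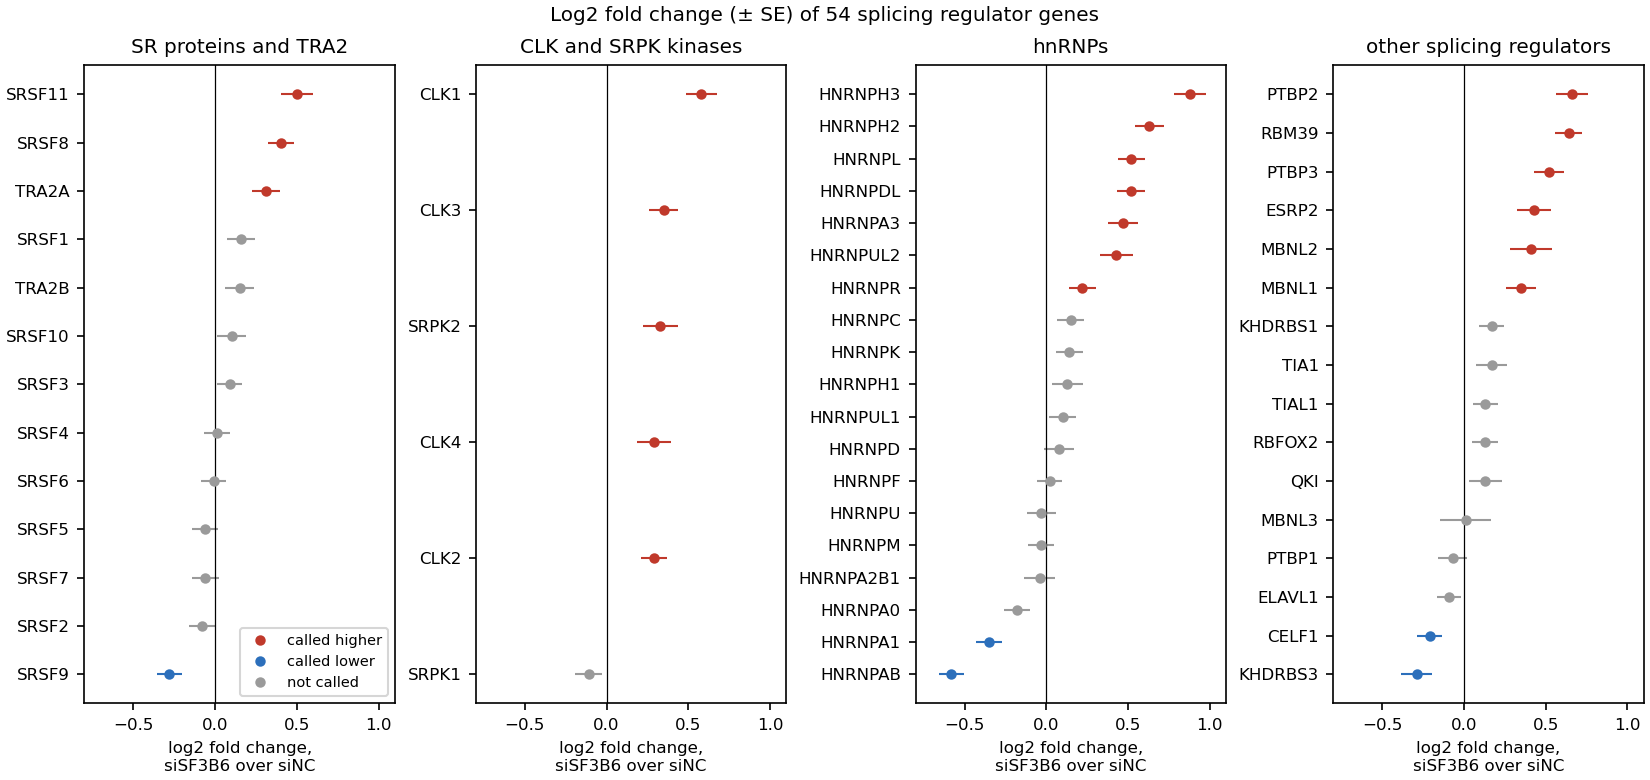
Log2 fold change (siSF3B6 over siNC) of the 54 splicing regulator genes by family, as points with bars of 1 SE from edgeR with n = 3 libraries per group. Red and blue points passed an adjusted p under 0.05 upward and downward and grey points did not; the values run from 0.88 for HNRNPH3 to -0.58 for HNRNPAB.

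Among SR proteins and the related TRA2 proteins, 3 of 13 genes were higher, 1 was lower and 9 did not pass. Their median log2 fold change was 0.088. Of all genes tested, 20.8% were called higher and 20.0% lower, so the 3 SR and TRA2 genes called higher are near the share of all genes. The genes called higher were SRSF11, SRSF8 and TRA2A, and the gene called lower was SRSF9. None of the 13 was called with siNC replicate 3 as the lone control. SRSF11, an SR-related protein known to interact with U2AF, which lies on chromosome 1 at 70205682 to 70253052 (plus strand, GRCh38), had 164, 161 and 206 CPM in siSF3B6 against 130, 114 and 131 CPM in siNC. The siSF3B6 libraries all lay above siNC, with replicate 3 the highest (log2 fold change 0.50, SE 0.1, edgeR adjusted p = 0.00141; 0.43, adjusted p = 0.0752, with the lone control). SRSF8, an intronless human relative of SRSF2 on chromosome 11 at 95067197 to 95071224, had 40.7, 41.6 and 43.0 CPM in siSF3B6 against 31.8, 30.9 and 32.4 CPM in siNC. Its replicates were the closest together of these 3 genes, and the siSF3B6 libraries all lay above siNC (0.40, SE 0.0796, adjusted p = 0.00146; 0.35, adjusted p = 0.0966, with the lone control). TRA2A, a splicing activator that binds purine-rich exons, had 80.8, 77.7 and 86.6 CPM in siSF3B6 against 66.2, 60.5 and 70.6 CPM in siNC. No siSF3B6 library overlapped siNC (0.31, SE 0.0847, adjusted p = 0.00944), but the call was lost without siNC replicate 2 (0.25, adjusted p = 0.0701). Its paralogue TRA2B had 178, 183 and 199 CPM in siSF3B6 against 159, 156 and 189 CPM in siNC. Those groups overlapped, through siNC replicate 3 (0.15, adjusted p = 0.188).

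SRSF9, one of the smallest SR proteins, was the SR gene called lower. It had 246, 256 and 234 CPM in siSF3B6 and 303, 304 and 288 CPM in siNC. Each siSF3B6 library lay below each siNC library (log2 fold change -0.28, SE 0.0758, edgeR adjusted p = 0.00944). SRSF9 shares 46.2% of its exonic bases with the opposite-strand gene GATC, and whether the reads were counted by strand is not given in the sources used here. GATC itself had a log2 fold change of 0.19 (adjusted p = 0.084), the other direction from SRSF9. SRSF2, the most abundant SR gene per length and a binder of both purine- and pyrimidine-rich exonic sites, had 268, 276 and 258 CPM in siSF3B6 against 280, 264 and 303 CPM in siNC, with overlapping groups (-0.08, adjusted p = 0.467). SRSF3, the smallest of the classical SR proteins, had 419, 411 and 436 CPM in siSF3B6 against 412, 389 and 389 CPM in siNC, also overlapping (0.09, adjusted p = 0.388). Over the 9 SR genes that did not pass (SRSF1 to SRSF7, SRSF10 and TRA2B), the log2 fold changes ran from -0.08 to 0.16, with adjusted p between 0.141 and 0.944.

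Most kinases of SR proteins passed the test with all 6 libraries. Beside the 20.8% of all genes tested that were called higher, CLK1, CLK2, CLK3, CLK4 and SRPK2 were higher, 5 of 6 genes. SRPK1 did not pass, and the median log2 fold change over the family was 0.31. The number called dropped to 3 when siNC replicate 1 or siSF3B6 replicate 3 was left out and to 2 when siNC replicate 2 was left out, and 1, CLK3, was called with siNC replicate 3 as the lone control. CLK1, on chromosome 2 at 200853009 to 200864744 (minus strand), had 66.1, 66.2 and 81.5 CPM in siSF3B6 against 45.5, 46.9 and 50.8 CPM in siNC. The groups were well apart, with replicate 3 the highest in each (log2 fold change 0.58, SE 0.0962, edgeR adjusted p = 0.000408; 0.47, adjusted p = 0.0534, with the lone control). CLK3, on chromosome 15 at 74598500 to 74645414, had 63.5, 64.6 and 58.1 CPM in siSF3B6 against 50.7, 51.5 and 43.7 CPM in siNC. Here replicate 3 was the lowest of each group, and the groups did not overlap (0.35, SE 0.0887, adjusted p = 0.00623; 0.49, adjusted p = 0.0284, with the lone control).

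CLK2 had 41.1, 39.9 and 40.8 CPM in siSF3B6 against 33.5, 32.6 and 33.7 CPM in siNC. The values of each group lay close together, and all siSF3B6 values were above siNC (log2 fold change 0.29, SE 0.0785, edgeR adjusted p = 0.0101), with the call lost without siNC replicate 2 (0.27, adjusted p = 0.0556). CLK4 had 21.8, 21.2 and 27.1 CPM in siSF3B6 against 18.9, 18.6 and 19.9 CPM in siNC. Its groups did not overlap, but siSF3B6 replicate 3 stood above the other values (0.29, SE 0.105, adjusted p = 0.0425), and the call was lost without siNC replicate 1, siNC replicate 2, siSF3B6 replicate 1 or siSF3B6 replicate 3 (adjusted p = 0.117, 0.132, 0.0518 and 0.135, and 0.16 in place of 0.29 without the last). SRPK2, whose product like SRPK1 acts mainly in the cytoplasm, had 36.9, 37.1 and 43.6 CPM in siSF3B6 against 30.4, 27.7 and 35.2 CPM in siNC. The lowest siSF3B6 library was just above siNC replicate 3 (0.33, SE 0.105, adjusted p = 0.0208), and the call was lost without siNC replicate 1, siNC replicate 2 or siSF3B6 replicate 3 (adjusted p = 0.073, 0.116 and 0.0774). SRPK1, the most abundant kinase of the family at a mean of 31.0 FPKM (fragments scaled to transcript length and library size) in siSF3B6 and 34.7 FPKM in siNC, had 244, 240 and 269 CPM in siSF3B6 against 262, 260 and 291 CPM in siNC. The groups overlapped (-0.11, SE 0.0821, adjusted p = 0.305).

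**Figure D2:**
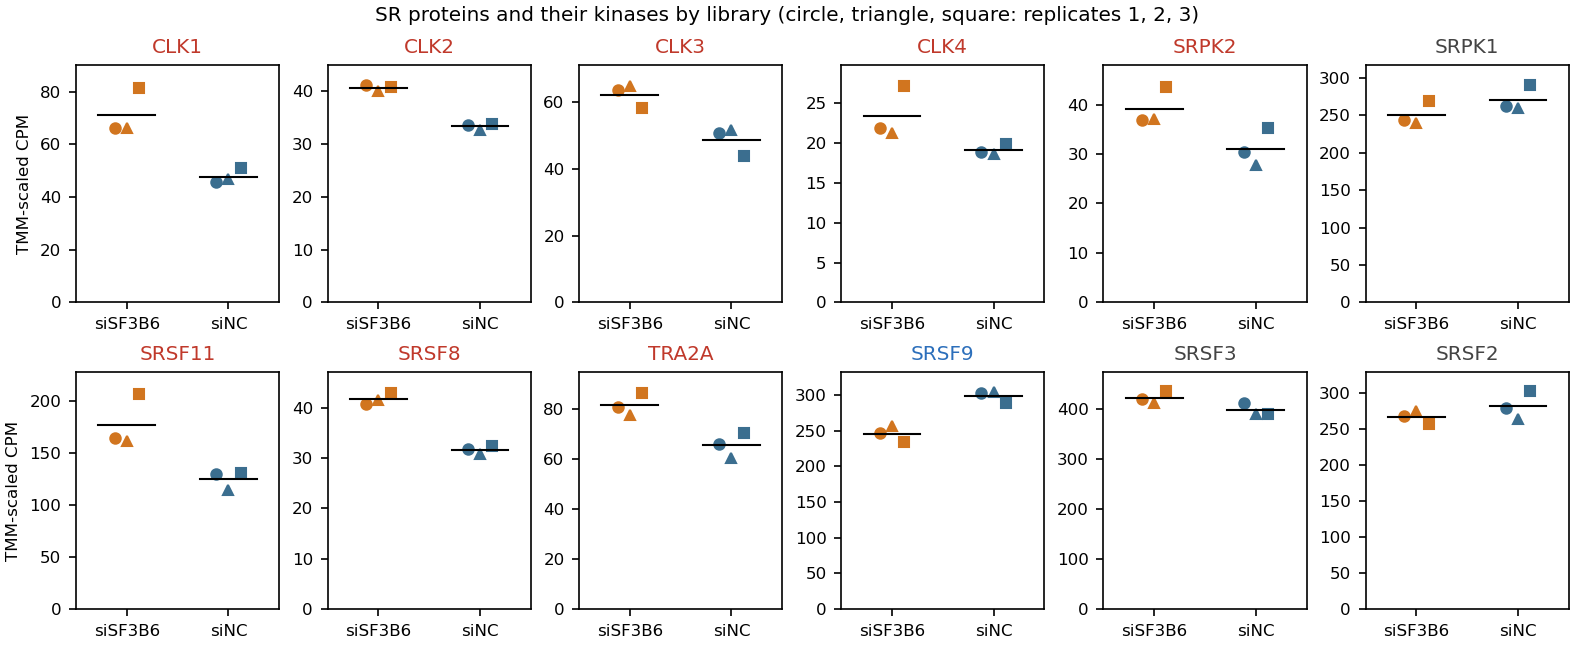
TMM-scaled CPM of 6 kinases and 6 SR or TRA2 genes in each library, siSF3B6 in orange and siNC in blue, with the group mean as a line and the name in red, blue or grey for genes called higher, lower or not called. The siSF3B6 libraries lay above siNC for CLK1 to CLK4, SRPK2, SRSF11, SRSF8 and TRA2A, below it for SRSF9, and overlapped it for SRPK1, SRSF3 and SRSF2.

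CLK1 and CLK4 are close paralogues whose products phosphorylate SR proteins in the nucleus. CLK1, CLK2, CLK3 and CLK4 were all called higher. The 250 bases before a start that RefSeq lists are shown for CLK1 and CLK4, which hold the letters marked below. The windows of CLK2 and CLK3 do not hold them. For CLK1 and CLK3 RefSeq lists 2 starts, and a single window was used for each gene. The sequences are those of RefSeq on GRCh38.p14, chr2:200864659-200864908 for CLK1 and chr5:178627051-178627300 for CLK4, both on the minus strand. Other transcripts in GENCODE 29 start further upstream, at 200864744 for CLK1 and 178630615 for CLK4, so the CLK1 window, with the marked bases, lies in part and the CLK4 window wholly inside the annotated gene. Capitals mark a CRE half-site, the letters TGACG or their complement CGTCA, to which CREB and ATF factors can bind.
CLK1: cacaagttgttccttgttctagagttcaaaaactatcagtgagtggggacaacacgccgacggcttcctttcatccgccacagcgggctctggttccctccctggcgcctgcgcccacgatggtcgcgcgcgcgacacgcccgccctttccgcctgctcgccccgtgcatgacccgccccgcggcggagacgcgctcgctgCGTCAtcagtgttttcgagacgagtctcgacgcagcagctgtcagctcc
CLK4: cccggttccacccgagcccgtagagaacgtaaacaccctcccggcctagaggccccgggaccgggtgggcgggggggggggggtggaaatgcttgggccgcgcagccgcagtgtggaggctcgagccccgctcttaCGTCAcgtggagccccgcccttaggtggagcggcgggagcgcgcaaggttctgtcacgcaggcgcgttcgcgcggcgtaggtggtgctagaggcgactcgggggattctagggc

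TGACG was searched on both strands of this window, and 21.7% of the 27305 promoters of the table held it, as did 33.3% of the 45 regulators with an entry there. CLK1 and CLK4 held it once each, and CLK2 and CLK3 did not hold it. The windows of CLK2 and CLK3 also lie wholly inside the annotated gene, so bases before its outer start were not searched. The GC box GGGCGG was found in CLK1, CLK2 and CLK4, in 64.4% of the 45 regulators and in 42.3% of all promoters. The E-box CACGTG was found in CLK2 and CLK4, in 20.0% of the regulators and in 6.49% of all promoters. In CLK4 the E-box shares bases with the CRE half-site. CCAAT was found in CLK3 among the 4 genes, in 35.6% of the regulators and in 33.0% of all promoters, and TATAAA in none of the 4, in 13.3% and in 11.1%. Promoters of these genes are rich in GC, and letters in a window say nothing on whether a factor was bound.

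The shares of all genes tested that were called higher and lower were 20.8% and 20.0%. Of the 19 hnRNP genes, 7 were higher, 2 were lower and 10 did not pass, with a median log2 fold change of 0.13. With siNC replicate 3 as the lone control 3 were higher and 2 lower. Within the F and H subfamily, whose proteins bind runs of G, HNRNPH3 and HNRNPH2 were higher while HNRNPH1 and HNRNPF did not pass. HNRNPH3, on chromosome 10 at 68331174 to 68343191 (plus strand), had 263, 264 and 316 CPM in siSF3B6 against 143, 143 and 173 CPM in siNC. The lowest siSF3B6 library was above the highest siNC library by a wide margin, and this was the largest change of the 54 regulators (log2 fold change 0.88, SE 0.0997, edgeR adjusted p = 2.52e-05; 0.69, adjusted p = 0.00664, with the lone control). HNRNPH2, on the X chromosome at 101408295 to 101414133 (plus strand), had 88.0, 85.0 and 98.6 CPM in siSF3B6 against 57.9, 53.9 and 63.7 CPM in siNC. As with HNRNPH3, each siSF3B6 library exceeded each siNC library (0.63, SE 0.0896, adjusted p = 0.000135; 0.49, adjusted p = 0.0285, with the lone control). A readthrough gene, RPL36A-HNRNPH2, covers 16.3% of its exonic bases on the same strand and had a log2 fold change of 0.02 (adjusted p = 0.942).

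HNRNPH1, on chromosome 5 at 179614178 to 179634784, had 398, 383 and 450 CPM in siSF3B6 against 359, 355 and 414 CPM in siNC. The groups overlapped through siNC replicate 3 (log2 fold change 0.13, SE 0.0921, edgeR adjusted p = 0.3). HNRNPF, on chromosome 10 at 43385617 to 43409166, had 288, 290 and 300 CPM in siSF3B6 against 287, 273 and 309 CPM in siNC. The siSF3B6 values lay inside the siNC range (0.02, SE 0.0779, adjusted p = 0.895). The sign for HNRNPF is not stable, since it turns with scaling by library size alone.

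The A/B-type hnRNPs, which bind A- and U-rich or UAG sequences and often repress exons, moved in both directions. HNRNPA1, an abundant repressor of exon inclusion on chromosome 12 at 54280193 to 54287088 (plus strand), had 631, 659 and 644 CPM in siSF3B6 and 814, 796 and 848 CPM in siNC. All siSF3B6 libraries were below siNC (log2 fold change -0.35, SE 0.0803, edgeR adjusted p = 0.00375; -0.41, adjusted p = 0.0207, with the lone control). HNRNPA1 has 54 pseudogene rows in the table, and their reads amounted to 1.96% to 2.25% of its own, so a part of its reads may have been placed elsewhere. HNRNPA3, its paralogue on chromosome 2 at 177212563 to 177223958, had 432, 444 and 533 CPM in siSF3B6 against 343, 322 and 350 CPM in siNC. All siSF3B6 libraries were above siNC, with replicate 3 the highest (0.47, SE 0.093, adjusted p = 0.00125; 0.41, adjusted p = 0.0598, with the lone control). HNRNPA2B1 had 967, 966 and 1150 CPM in siSF3B6 against 1070, 1000 and 1090 CPM in siNC, with overlapping groups (-0.04, adjusted p = 0.773). HNRNPA0 had 176, 175 and 159 CPM in siSF3B6 against 193, 200 and 184 CPM in siNC. Its groups did not overlap, but the difference did not pass (-0.18, SE 0.0776, adjusted p = 0.0814).

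HNRNPAB, the most abundant of the 54 genes per length in siNC, was the regulator that fell most with TMM scaling. With the GC and length offset KHDRBS3 (-0.50) and HNRNPA1 (-0.48) fell further than HNRNPAB (-0.46). HNRNPAB lies on chromosome 5 at 178204507 to 178211163 (plus strand) and had 237, 243 and 221 CPM in siSF3B6 and 351, 339 and 355 CPM in siNC. No siSF3B6 library came near siNC (log2 fold change -0.58, SE 0.0765, edgeR adjusted p = 8.05e-05; -0.62, adjusted p = 0.00427, with the lone control). Its mean was 91.1 FPKM in siSF3B6 and 141 FPKM in siNC. HNRNPDL, a relative of HNRNPD and HNRNPAB on chromosome 4 at 82422564 to 82430408 (minus strand), went the other way, with 382, 384 and 430 CPM in siSF3B6 against 275, 261 and 301 CPM in siNC. The lowest siSF3B6 library was well above the highest siNC library (0.52, SE 0.0858, adjusted p = 0.000404; 0.39, adjusted p = 0.0455, with the lone control). HNRNPD, the AU-rich element binding protein AUF1, did not pass (0.08, SE 0.0907, adjusted p = 0.522).

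HNRNPL, which binds CA repeats and lies on chromosome 19 at 38836388 to 38852347 (minus strand), had 189, 184 and 179 CPM in siSF3B6 against 122, 122 and 142 CPM in siNC. All siSF3B6 libraries were above siNC, of which replicate 3 came closest (log2 fold change 0.52, SE 0.0825, edgeR adjusted p = 0.000306; 0.36, adjusted p = 0.0598, with the lone control). HNRNPUL2 had 68.9, 69.7 and 79.0 CPM in siSF3B6 against 51.6, 47.6 and 62.0 CPM in siNC, without overlap (0.43, SE 0.102, adjusted p = 0.00421). A readthrough gene, HNRNPUL2-BSCL2, covers 44.1% of its exonic bases and had more reads than HNRNPUL2 itself, so the split of reads between them is uncertain. HNRNPR had 211, 211 and 238 CPM in siSF3B6 against 187, 179 and 200 CPM in siNC. The siSF3B6 libraries were all above siNC (0.22, SE 0.0818, adjusted p = 0.0439), but the call was lost without siNC replicate 1 or 2 or siSF3B6 replicate 1, 2 or 3 (adjusted p = 0.136, 0.193, 0.0751, 0.0635 and 0.0905). HNRNPK, which binds C-rich sequences, had 647, 646 and 683 CPM in siSF3B6 against 591, 565 and 636 CPM in siNC. Its groups did not overlap, and the difference did not pass (0.14, SE 0.0831, adjusted p = 0.192). Over the 10 hnRNPs that did not pass, the log2 fold changes ran from -0.18 to 0.15 with adjusted p between 0.0814 and 0.895. Besides the 5 given above with values, these were HNRNPC, HNRNPD, HNRNPM, HNRNPU and HNRNPUL1.

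For comparison, 20.8% of all genes tested were called higher and 20.0% lower. Among the other regulators, 6 of 16 genes were higher, 2 were lower and 8 did not pass. Their median log2 fold change was 0.15. The number called was 4 without siNC replicate 1 and 5 without siNC replicate 2, and 2, PTBP2 and RBM39, with siNC replicate 3 as the lone control. RBM39, an SR-like protein that works with U2AF at 3' splice sites and is the target of aryl sulfonamide degraders, had 433, 438 and 488 CPM in siSF3B6 against 296, 279 and 300 CPM in siNC. It lies on chromosome 20 at 35701347 to 35742312 (minus strand). The groups were far apart (0.64, SE 0.0817, edgeR adjusted p = 6.27e-05; 0.58, adjusted p = 0.00819, with the lone control). PTBP2, the paralogue of PTBP1 best known from neurons, lies on chromosome 1 at 96721665 to 96823738 (plus strand). It had 26.3, 26.5 and 31.9 CPM in siSF3B6 against 17.6, 17.7 and 18.1 CPM in siNC. The 3 siNC values were nearly the same, and all siSF3B6 values lay above them (0.66, SE 0.0972, adjusted p = 0.000164; 0.62, adjusted p = 0.0207, with the lone control). Its level was low, 1.59 FPKM in siSF3B6 and 1.04 FPKM in siNC.

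PTBP3, on chromosome 9 at 112217716 to 112333667 (minus strand), had 135, 133 and 161 CPM in siSF3B6 against 99.7, 93.2 and 106 CPM in siNC. The groups did not overlap (log2 fold change 0.52, SE 0.0905, edgeR adjusted p = 0.000539; 0.42, adjusted p = 0.0605, with the lone control). PTBP1, the main repressor of the PTBP family in most cells, which lowers PTBP2 by skipping one of its exons, had 398, 384 and 335 CPM in siSF3B6 against 379, 375 and 420 CPM in siNC. The groups overlapped, with replicate 3 the lowest in siSF3B6 and the highest in siNC (-0.07, SE 0.089, adjusted p = 0.556). The PTBP1 value was 0.13 (adjusted p = 0.229) once GC content and length were offset, so its sign is not settled.

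MBNL1, which binds YGCY motifs and sets adult splicing patterns in muscle, had 152, 148 and 176 CPM in siSF3B6 against 117, 118 and 138 CPM in siNC. The groups did not overlap (log2 fold change 0.35, SE 0.0928, edgeR adjusted p = 0.00837), and the call was lost without siNC replicate 1 or 2 (adjusted p = 0.0508 and 0.0509). MBNL2 had 43.7, 40.7 and 50.7 CPM in siSF3B6 against 33.1, 27.5 and 41.0 CPM in siNC. Of the 26 called regulators it was the only one whose groups overlapped (0.41, SE 0.129, adjusted p = 0.021), and the call was lost without siNC replicate 1, siNC replicate 2 or siSF3B6 replicate 3 (adjusted p = 0.0626, 0.111 and 0.104). MBNL3, the least abundant of the 54 genes at 0.3 FPKM in siSF3B6 and 0.307 FPKM in siNC, had 4.56, 4.12 and 5.30 CPM in siSF3B6 against 4.17, 4.14 and 5.48 CPM in siNC. The 2 groups covered nearly the same range (0.01, SE 0.157, adjusted p = 0.957). ESRP2, a splicing regulator of epithelial cells, had 11.9, 11.4 and 10.5 CPM in siSF3B6 against 8.21, 8.45 and 8.48 CPM in siNC. It was higher without overlap, at a low level in this mesenchymal line (0.43, SE 0.104, adjusted p = 0.00517; 0.40, adjusted p = 0.118, with the lone control). The epithelial markers CDH1 and EPCAM had means of 6.63 and 22.8 CPM in siSF3B6 against 4.5 and 10.7 CPM in siNC, and KRT19 had 585 CPM in siSF3B6 against 545 CPM in siNC; their relation to ESRP2 was not tested. ESRP1, the paralogue of ESRP2, was at 0.0298 to 0.17 CPM in all 6 libraries.

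The genes called lower in this family were KHDRBS3 and CELF1. KHDRBS3, a STAR-family relative of SAM68, had 14.7, 15.9 and 16.8 CPM in siSF3B6 and 19.4, 18.1 and 20.4 CPM in siNC. All siSF3B6 libraries were below siNC (log2 fold change -0.29, SE 0.0946, edgeR adjusted p = 0.0269), and the call was lost without siNC replicate 1, siNC replicate 3, siSF3B6 replicate 1 or siSF3B6 replicate 2 (adjusted p = 0.0802, 0.0663, 0.12 and 0.0715). CELF1, which binds GU-rich sequences and acts against MBNL proteins at many exons, had 89.6, 91.0 and 89.4 CPM in siSF3B6 and 112, 99.9 and 101 CPM in siNC. The groups did not overlap (-0.21, SE 0.0771, adjusted p = 0.0416), and the call was lost without siNC replicate 1, siNC replicate 2, siSF3B6 replicate 1 or siSF3B6 replicate 2 (adjusted p = 0.22, 0.0702, 0.117 and 0.104). Without siNC replicate 1, siSF3B6 replicate 1 or siSF3B6 replicate 2, 3 of the 54 regulators were lower in place of 5. KHDRBS1, which encodes SAM68, had 194, 194 and 213 CPM in siSF3B6 against 182, 173 and 180 CPM in siNC. These groups did not overlap, and the difference did not pass (0.17, adjusted p = 0.0925). RBFOX2, QKI, ELAVL1, TIA1 and TIAL1 did not pass either, with log2 fold changes between -0.09 for ELAVL1 and 0.17 for TIA1.

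**Figure D3:**
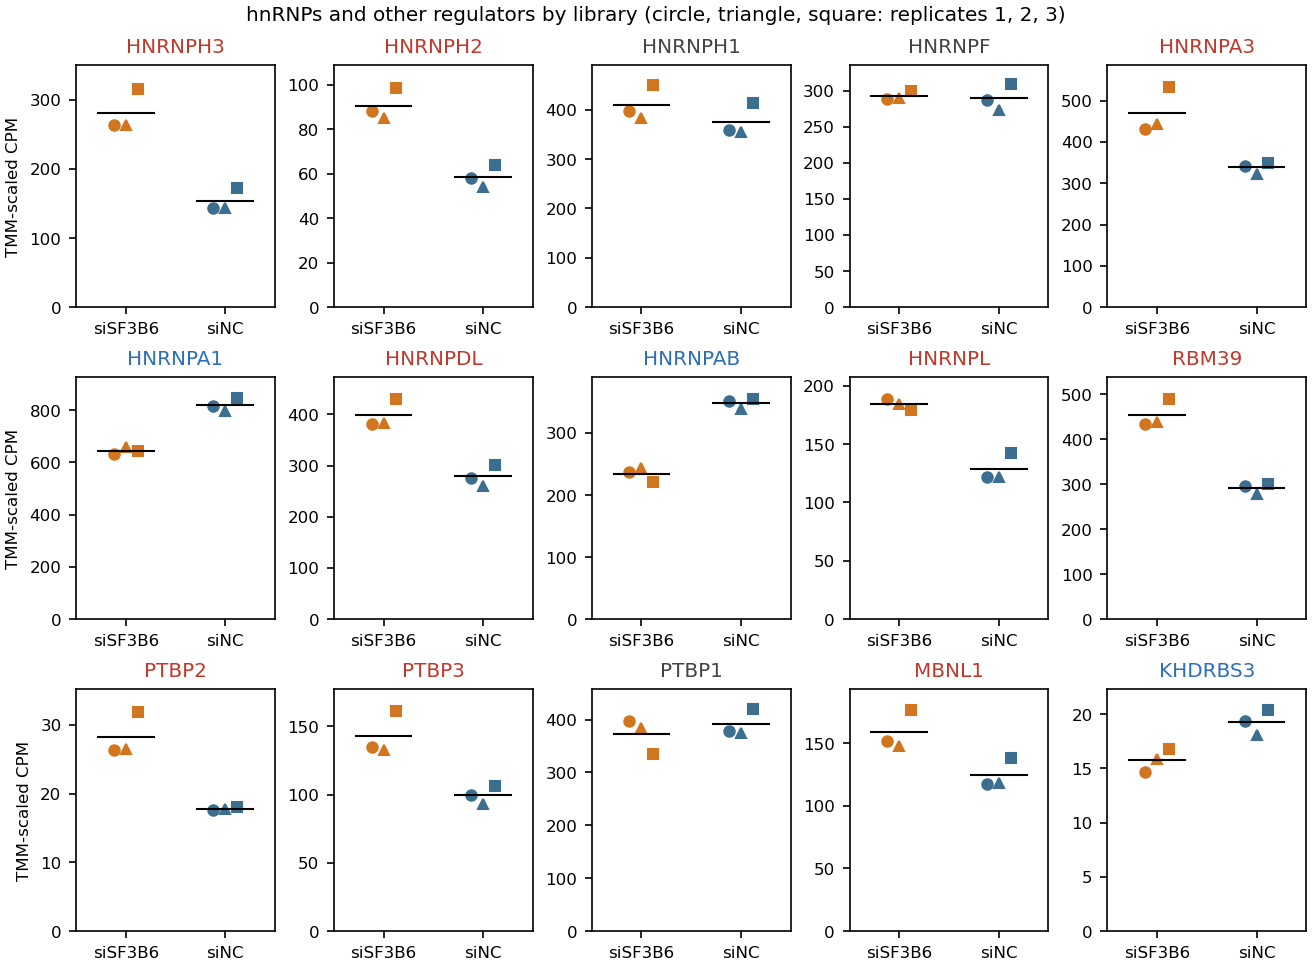
TMM-scaled CPM of 9 hnRNPs and 6 other regulators in each library, siSF3B6 in orange and siNC in blue, with the group mean as a line and the name in red, blue or grey for genes called higher, lower or not called. HNRNPH3 (263 to 316 CPM in siSF3B6, 143 to 173 CPM in siNC) and HNRNPAB (221 to 243 CPM in siSF3B6, 339 to 355 CPM in siNC) show the largest fold change in each direction.

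Because related proteins often compete for the same sites, the level of one gene over its relative was also computed within each library. This ratio of FPKM is per length and free of the library scaling, but it is not adjusted for GC content. The pairs were chosen with the changes above known, so the ratios are a description without a test. HNRNPH3 over HNRNPH1 was 1.17, 1.22 and 1.24 in siSF3B6 and 0.7, 0.711 and 0.735 in siNC. By FPKM, HNRNPH3 was thus above HNRNPH1 in every siSF3B6 library and below it in every siNC library. By CPM, HNRNPH1 was above HNRNPH3 in every library of both groups, so this change of rank depends on the gene lengths used for FPKM. HNRNPH2 over HNRNPH1 was 0.913, 0.917 and 0.905 in siSF3B6 and 0.665, 0.627 and 0.635 in siNC, with very close replicates. HNRNPAB over HNRNPDL was 1.62, 1.65 and 1.34 in siSF3B6 and 3.34, 3.39 and 3.08 in siNC, the widest shift of the pairs computed. HNRNPA3 over HNRNPA1 was 0.688, 0.677 and 0.831 in siSF3B6 and 0.423, 0.406 and 0.414 in siNC, so HNRNPA1 stayed the more abundant in all libraries.

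PTBP2 over PTBP1 was 0.0339, 0.0353 and 0.0487 in siSF3B6 and 0.0239, 0.0242 and 0.0222 in siNC. PTBP1 remained far more abundant, and replicate 3 gave the highest ratio in siSF3B6. PTBP3 over PTBP1 averaged 0.355 ± 0.0721 in siSF3B6 and 0.232 ± 0.00676 in siNC (SD, n = 3 each). SRPK2 over SRPK1 averaged 0.164 ± 0.00566 in siSF3B6 and 0.12 ± 0.0076 in siNC. For these pairs no siSF3B6 library overlapped siNC. GC content was 61.7% for PTBP1, against 34.7% for PTBP2 and 36.6% for PTBP3. With TMM scaling their log2 fold changes were -0.07, 0.66 and 0.52. With the GC and length offset they were 0.13, 0.43 and 0.30, so the gaps between PTBP1 and its relatives narrowed. The part of GC content in the ratios was not tested. MBNL2 over MBNL1 overlapped, at 0.584, 0.559 and 0.588 in siSF3B6 against 0.575, 0.475 and 0.602 in siNC, and so did HNRNPF over HNRNPH1, at 2.10, 2.20 and 1.93 in siSF3B6 against 2.32, 2.23 and 2.16 in siNC.

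**Figure D4:**
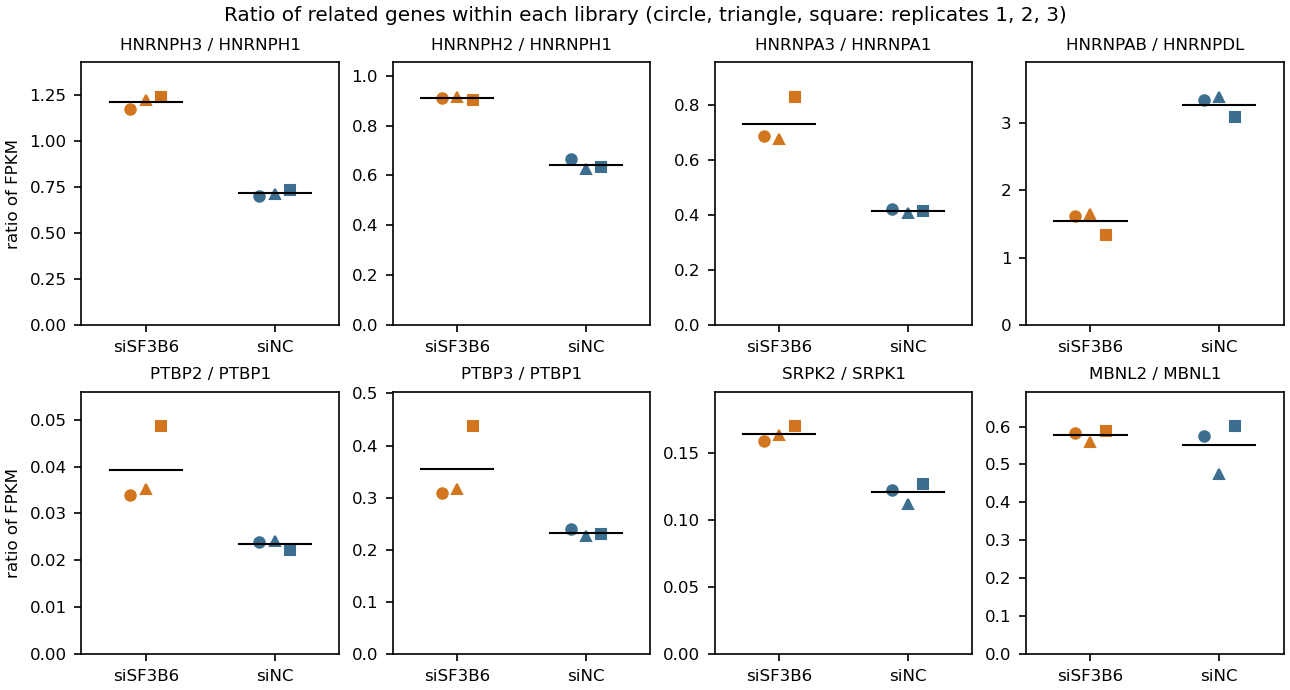
Ratio of FPKM of 2 related genes within each library, not adjusted for GC content, siSF3B6 in orange and siNC in blue, with the group mean as a line. HNRNPH3 over HNRNPH1 lies above 1 in all siSF3B6 libraries and below 1 in all siNC libraries, HNRNPAB over HNRNPDL is lower in siSF3B6, and MBNL2 over MBNL1 overlaps.

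The GC content of a transcript moved with the difference between the groups. Over all genes, those called higher had a median GC content of 43.3% and those called lower 54.3%, in the longest transcript of GENCODE 29. Of the 54 regulators, 46 lay under the median of all tested genes, 48.4%. The gap was narrower among the regulators, with medians of 41.6% for the 21 called higher and 43.0% for the 5 called lower. Those not called had the lowest median, 40.5%, so the medians do not follow the direction of the call. By family, the medians of genes called higher and lower were 41.1% and 42.1% for SR and TRA2 genes, 43.3% and 48.6% for hnRNPs, and 38.3% and 42.2% for other regulators. The values for genes called lower rest on 1 SR gene, 2 hnRNPs and 2 other regulators. With an offset fitted per library for GC content and length, 20 regulators were higher and 15 lower, with a median log2 fold change of 0.0095, where 23.7% and 22.7% of all genes were called. Of the 21 regulators called higher 18 kept the call, as did all 5 called lower. The 3 that lost it were CLK4 (0.07), MBNL2 (0.19) and HNRNPR, whose sign turned (-0.01). By family the offset gave 3 higher and 5 lower of 13 SR and TRA2 genes, 4 higher and 1 lower of 6 kinases, 7 higher and 6 lower of 19 hnRNPs and 6 higher and 3 lower of 16 other regulators. With the offset HNRNPH3 had 0.76 (adjusted p = 4.02e-06) and HNRNPAB -0.46 (adjusted p = 2.47e-05). SRPK1, which had not passed before, had -0.21 (adjusted p = 0.00774). The part of GC content in the difference between the groups was not tested beyond this offset.

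**Figure D5:**
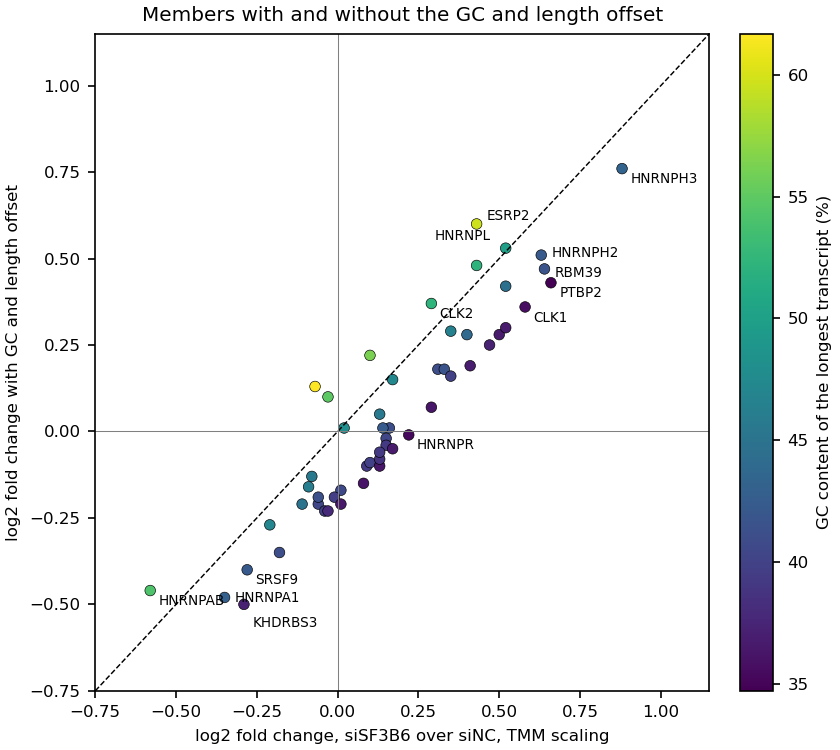
Log2 fold change (siSF3B6 over siNC) of the 54 regulators with TMM scaling on the x axis and with the GC and length offset on the y axis, each point coloured by the GC content of its longest transcript in percent and the dashed line marking equal values. GC-poor genes such as PTBP2 and CLK1 lie below the line and GC-rich genes such as ESRP2 and CLK2 above it; HNRNPH3, HNRNPH2, RBM39 and HNRNPL stay higher and HNRNPAB and HNRNPA1 lower on both axes.

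In 17 alternative fits, which include each library left out in turn, 5 regulators were called higher every time, HNRNPH3, HNRNPH2, HNRNPDL, PTBP2 and RBM39, and 2 were called lower every time, HNRNPA1 and HNRNPAB. Of the 26 called regulators, 17 kept the call when any single library was left out and 9 lost it in at least 1 such fit. The shares of all genes that were called in every fit, or kept their call in this way, were not computed. Whether the regulators are unusual in this cannot be told. In turn, 20 of the 28 regulators not called were called in at least 1 alternative, SRSF4 and HNRNPD among them with the other sign. Some alternatives called more genes of all kinds, 7825 with the offset and 9470 with libraries 1 and 2 only, against 6889 in the full fit. How many of all uncalled genes gained a call in this way was not computed. The count is thus no evidence of missed changes in these regulators, and a missed threshold does not show that a gene did not change. In simulated data, drawn for 16662 genes, only a small set of genes above a minimum level was given a change. Of that set, the test recovered 30% of genes changed 1.25-fold and 96% of those changed 1.5-fold. Far fewer genes changed there than the 6889 called in the measured libraries. The Benjamini-Hochberg threshold moves with the share of genes that change, and whether these figures hold for the measured libraries was not tested.

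The site that pairs with the guide seed of the siSF3B6 duplex, TGAAGCT, was present in a 3' UTR of 15 of the 54 regulators (27.8%), against 18.4% of the 13403 genes with a 3' UTR that were tested. Of the 15, 6 were called higher, among them CLK1, HNRNPDL and RBM39, 3 were called lower, HNRNPA1, HNRNPAB and CELF1, and 6 did not pass. Their median log2 fold change was 0.10, against 0.15 in the regulators without the site and -0.024 in all genes with it. The site of the siNC duplex, TGTCACG, was present in 3 regulators (5.56%), SRSF7, ESRP2 and QKI, against 3.55% of all genes. Whether seed pairing had a part in the fall of HNRNPA1, HNRNPAB and CELF1 was not tested.

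Splicing regulators outside the 54 genes were taken from 4 further lists. Their counts stand beside the 20.8% of all genes tested that were called higher and the 20.0% called lower, and no list was tested as a set. Of 25 SR-related nuclear proteins, 24 were tested, of which 13 were higher and 3 lower (median log2 fold change 0.25, and 0.18 with the GC and length offset). CCNL1, the cyclin L1 that pairs with CDK11 and carries an arginine-serine domain, had 56.0, 57.0 and 66.7 CPM in siSF3B6 against 27.2, 28 and 35.8 CPM in siNC. The groups were far apart (0.98, SE 0.112, edgeR adjusted p = 2.69e-05). SCAF8 (0.73), which binds the tail of RNA polymerase II, RSRC2 (0.54) and the cyclophilin PPIG (0.53) were higher as well. Against the lone control, siNC replicate 3, 2 of the 24 were higher and 1 lower (median 0.16), with CCNL1 (0.73, adjusted p = 0.00726) and SCAF8 (0.60, adjusted p = 0.0199) called, and RSRC2 (adjusted p = 0.0733) and PPIG (adjusted p = 0.328) not. Of 14 other hnRNP-like proteins, 3 were higher and 4 lower (median 0.068, and -0.11 with the offset), with FUBP1 (0.67) and PCBP1 (0.37) higher and the cold-inducible CIRBP (-0.40) and KHSRP (-0.33) lower. PCBP1 shares 52.2% of its exonic bases with PCBP1-AS1 on the opposite strand, so its reads may be shared. The PCBP1 groups overlapped, through siNC replicate 3. With that library as the only control 1 of the 14 was called, lower (edgeR, median -0.11), and PCBP1 (0.11, adjusted p = 0.596), FUBP1 (0.41, adjusted p = 0.0539), CIRBP (-0.31, adjusted p = 0.114) and KHSRP (-0.35, adjusted p = 0.0872) were not called.

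Of 7 other kinases and import receptors, 6 were tested, with 3 higher and 1 lower (median log2 fold change 0.23, and 0.098 with the offset). DYRK1A, a nuclear kinase that phosphorylates SR proteins, had 48.1, 52.6 and 57.2 CPM in siSF3B6 against 34.7, 34.9 and 36.7 CPM in siNC. Its groups did not overlap (0.57, SE 0.0871, edgeR adjusted p = 0.000221). DYRK1B (0.40) and PRPF4B (0.32), a kinase of the spliceosome, were higher, and the import receptor TNPO2 (-0.38) was lower. PRPF4B lost its call with the offset (0.10, adjusted p = 0.111). Against the lone control 1 of the 6 was called, DYRK1A (0.51, adjusted p = 0.0325), and the median was 0.19. Of 18 other tissue splicing regulators, 8 were tested, with 4 higher and 1 lower (median 0.16, and 0.18 with the offset), and RBM4 (0.88), CELF2 (0.39), RBM47 (0.25) and RBM5 (0.24) were the 4 that were higher. Against the lone control 1 of the 8 was called, RBM4 (0.82, adjusted p = 0.0176), and the median was 0.15. RBM4 shares 24.2% of its exonic bases with the same-strand gene RBM14-RBM4, so a part of its reads may be shared. Most of the 10 not tested are neuronal or muscle genes such as NOVA1, RBFOX1 and ELAVL4.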

How the data were processed

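Whole-number read counts per gene and FPKM values were deposited by the authors for 6 libraries. HISAT2, DESeq2 and hg38 are named without versions in the submitters' processing notes; which tool counted reads, whether by strand and on which annotation is not given in the sources used here. The labels' protocols state dUTP strand-specific libraries. Groups come from the titles, which name MDA-MB-231 throughout, while the cell line field counts upward from that name.

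Counts were tested with edgeR 4.0.16 in R 4.3.3 (filterByExpr, TMM, glmQLFit and glmQLFTest, Benjamini-Hochberg over 16869 genes, threshold 0.05), siSF3B6 over siNC. SE is the absolute log2 fold change over the square root of F. Ratios use FPKM. GENCODE 29 on GRCh38 gave positions, GC content, length and 3' UTRs. Simulated counts were used to check the test.

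The members and lists were chosen with earlier results of these data known. In each family, up to 6 called genes with the largest change, up to 3 most abundant genes and their paralogue groups were named; HNRNPUL2, HNRNPR, KHDRBS3, CELF1, HNRNPD and the remaining names were chosen after their values were seen. Alternatives were DESeq2 1.42.0, RLE factors, library size only, no filter, a replicate block, a GC and length offset (lowess, span 0.3), single libraries left out, siNC replicate 3 alone, libraries 1 and 2 alone and limma 3.58.1 on log2(FPKM + 1) or log2(FPKM + 0.1), with genes of at least 0.5 mean FPKM or with no filter.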

Additional observations from a re-analysis of the deposited data

How the results depend on the processing

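The sign and call of SF3B6 held in all 17 alternatives. The number of regulators called higher was 12 with limma on unfiltered log2(FPKM + 1) and 6 with siNC replicate 3 alone; the number called lower was 15 with the GC and length offset, 9 with libraries 1 and 2 only and 2 with siNC replicate 3 alone. Leaving out single libraries gave 14 to 23 higher and 3 to 5 lower. Scaling by library size alone shifted the median over all genes tested by -0.10 and gave 14 regulators higher and 6 lower, against 21 and 5, and 2459 genes higher and 4558 lower, against 3509 and 3380. Unfiltered limma gave 1561 and 2256. SR and TRA2 calls were 8 with the offset, 2 with unfiltered limma and 0 with siNC replicate 3 alone. Kinase calls were 1 with library size only, 3 with log2(FPKM + 0.1) and log2(FPKM + 1), 2 unfiltered, 1 with siNC replicate 3 alone and 2 to 5 with single libraries left out. hnRNP calls were 16 with libraries 1 and 2 only and 5 with siNC replicate 3 alone. Calls among other regulators were 5 with unfiltered limma, 2 with siNC replicate 3 alone and 4 to 7 with single libraries left out. Calls over all genes were 3817 with unfiltered limma and 2471 with siNC replicate 3 alone. The median of the regulators was 0.01 with the offset, 0.036 with library size only and 0.042 with siNC replicate 3 alone. The cause of these shifts was not tested. Fits with libraries left out also had fewer libraries. With libraries 1 and 2 only, 9470 genes were called, against 6889 in the full fit.

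The sign turned in at least 1 alternative for 22 of the 54 regulators, of which HNRNPR was called in the full fit. With the offset SRSF4 (-0.17, adjusted p = 0.016) and HNRNPD (-0.15, adjusted p = 0.0362) were called with the other sign. Signs also turned for SRSF5, SRSF6, SRSF7, SRSF10, HNRNPC, HNRNPM, HNRNPU, HNRNPUL1, QKI, TIA1 and TIAL1, and for SRSF3 (-0.10 with the offset, -0.016 with library size only), TRA2B (-0.023 offset, -0.032 siNC replicate 3 alone), HNRNPH1 (-0.098 offset, -0.027 siNC replicate 3 alone), HNRNPR (-0.010 offset), PTBP1 (0.13 offset, 0.055 libraries 1 and 2), SRSF2 (0.005 libraries 1 and 2), HNRNPF (-0.086 library size only, -0.035 in all limma fits, -0.089 siNC replicate 3 alone) and MBNL3 (-0.21 offset, -0.086 library size only, -0.007 unfiltered limma, -0.25 siNC replicate 3 alone). Leaving out single libraries gave -0.028 to 0.067 for HNRNPF, -0.096 to 0.16 for MBNL3 and -0.13 to 0.006 for HNRNPA2B1.

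Same-numbered libraries deviated together only weakly (correlations over 16869 genes of 0.0397, 0.106 and 0.136), so the replicate numbers are not taken as pairs. With the replicate block 8052 genes, 23 regulators higher and 6 lower were called, against 6889, 21 and 5, and all 26 calls were retained. Each library correlated best with its own number, a hint from the data and not from the design. Shared culture of replicates, if any, would make p-values too small.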

Other observations

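Reads may be shared at members that overlap other genes. HNRNPU, which shares 15.6% of its exonic bases with COX20 on the opposite strand, had a log2 fold change of -0.03, while COX20, an assembly factor of cytochrome c oxidase, had 82.7, 85.5 and 90.4 CPM in siSF3B6 against 48.4, 48.1 and 62.3 CPM in siNC and was higher (0.70, edgeR adjusted p = 0.000151). The SRSF2 partner MFSD11, which shares 36.7% of the bases of SRSF2 on the opposite strand, had 25.0, 23.4 and 24.1 CPM in siSF3B6 against 23.1, 24.4 and 23.7 CPM in siNC, with overlapping groups. SRSF1 shares 56.6% of its bases with a same-strand gene, and its value of 0.16 is uncertain for that reason. Apart from HNRNPA1, the pseudogene rows of each member held under 1% of the reads of the parent.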
